A study of Homo sapiens with 6 samples.

Results

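H9, a human line of embryonic stem cells that is widely used and well established, was compared at day 6 and at day 0 of differentiation into cardiac organoids, which are small cultures of heart cell types that grow in 3 dimensions. The compared genes are the 16924 of 58735 genes in the deposited table with an FPKM of at least 1 in either library, where FPKM is a count of fragments divided by the length of the gene and by the size of the library. For each of them the difference was log2(FPKM + 1) at day 6 minus the same at day 0. A gene is said below to have risen or fallen when this difference was at least 1 or at most -1, and values are given without such a verb for all others. The study has 6 libraries, taken on day 0, on days 2 to 4, on day 6 and on day 30. The day 6 library stands for H9 cells after 6 days of differentiation, and the day 0 library for the same line at the start. Each sampling took 10 organoids, per the labels, and both libraries carry the cell type label of an embryonic stem cell. The sources used here name no medium, added factor or dose. Because each day is 1 library of 1 line, no difference has a replicate check and no p-value is given. Folds carry exact conditional binomial 95% intervals, which cover counting error only and leave out both the variation between cultures and the scaling between libraries.

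Human embryonic stem cells are kept in the pluripotent state by a small circuit of transcription factors around POU5F1, SOX2 and NANOG. On the way to heart muscle they pass through a primitive streak stage, at which mesoderm and endoderm part, then through cardiac mesoderm, and then through progenitors that switch on heart transcription factors before the contractile apparatus is complete. BMP, WNT and FGF signals set these steps, and the endoderm that forms beside heart mesoderm in the embryo gives rise to gut and liver.

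The depth was similar, with 15418010 reads recovered from the FPKM values at day 6 and 14824424 at day 0, within a range of 13500887 to 15526924 over the 6 libraries. A single read in a gene 1 kilobase long was worth 0.0578 FPKM at day 6, against 0.0688 FPKM at day 0. At day 6 15225 genes reached an FPKM of 1, against 14357 at day 0. Mitochondrially encoded genes held 3.86% of the day 6 reads, against 7.51% of the day 0 reads. The label of a stem cell was checked against 5 markers. At day 6, 3 of these 5 had an FPKM of at least 1 and their summed FPKM was 316, of which LIN28A alone made up 275. At day 0 all 5 had an FPKM of at least 1 and the sum was 1449. The day 6 library thus goes against its label for POU5F1, SOX2 and NANOG, of which SOX2 and NANOG were under 1 FPKM. Of 6 cardiomyocyte markers 5 reached an FPKM of 1 at day 6 with a sum of 29.5, against 1 marker and a sum of 2.18 at day 0. These are bulk samples, so fewer cells of a type and less RNA per cell cannot be told apart in any value below.

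By day 6 the culture had gained heart transcription factors, early contractile proteins, collagens and other matrix, endoderm factors with liver-type secreted proteins, vessel genes and the HOXB genes, while it had lost most of the core pluripotency circuit. In numbers, 2529 of the 16924 genes rose (14.9%) and 2224 fell (13.1%), and the median difference was -0.02. The share of calls that were rises was 53.2%, against 63.9% when the libraries were scaled by total reads and 70% under TPM scaling. These 2 scalings moved the median of all genes by 0.16 and 0.35 on the log2 scale. Of the genes that rose, 1418 had an FPKM under 1 at day 0, and of those that fell, 927 had an FPKM under 1 at day 6. The gene just inside the FPKM minimum was PROKR1, with 1.002 FPKM at day 6 and 0.677 FPKM at day 0. Just outside it was HARBI1, with 0.9996 FPKM at day 6 and 0.621 FPKM at day 0. At the limit for a rise, PCMTD2 with 25.3 FPKM at day 6 and 12.1 FPKM at day 0 was inside, and TMEM256 with 12.7 FPKM at day 6 and 5.84 FPKM at day 0 was outside. At the limit for a fall, THUMPD3 with 4.38 FPKM at day 6 and 9.76 FPKM at day 0 was inside, and ACOT13 with 3.16 FPKM at day 6 and 7.32 FPKM at day 0 was outside.

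**Figure D1:**
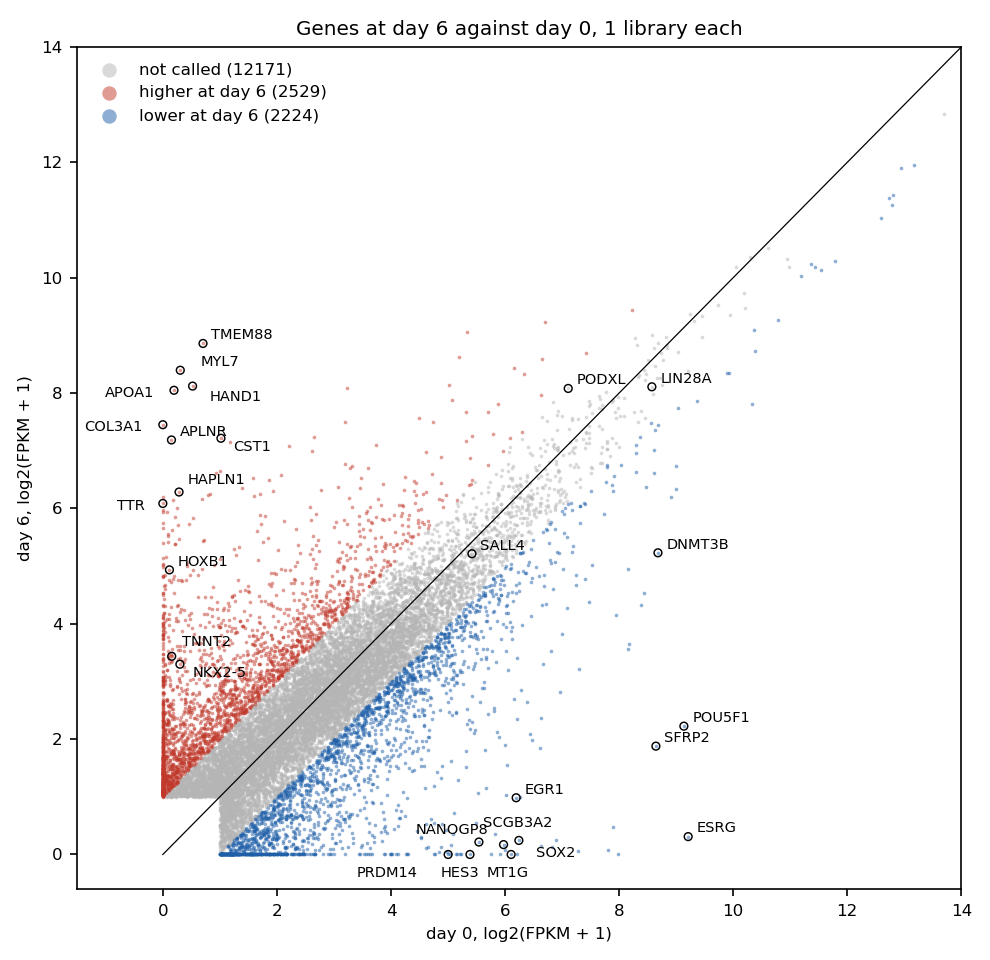
Each of the 16924 compared genes by its log2(FPKM + 1) at day 6 (vertical axis) and at day 0 (horizontal axis), 1 library each, with the line of equal levels; the 2529 genes that rose are red, the 2224 that fell blue and the 12171 others grey. TMEM88, MYL7, APOA1 and HAND1 lie at the upper left, POU5F1, SFRP2 and ESRG at the lower right, and LIN28A, PODXL and SALL4 near the line.

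The greatest rise of a protein-coding gene was that of TMEM88 (ENSG00000167874, chromosome 17, 7855065 to 7856099, plus strand, GRCh38), a membrane protein known to dampen WNT signalling in heart progenitors. It stood at 463.6 FPKM at day 6 and 0.629 FPKM at day 0, a 737-fold rise with an interval of 374 to 1707. MYL7 (ENSG00000106631, chromosome 7, 44138864 to 44141332, minus strand), the atrial light chain of myosin, followed with 335.8 FPKM at day 6 and 0.236 FPKM at day 0. The third was APOA1, the main protein of high-density lipoprotein, and the fourth HAND1, a heart mesoderm factor. APOA1 had 263.7 FPKM at day 6 and 0.145 FPKM at day 0, and HAND1 had 277 FPKM at day 6 and 0.436 FPKM at day 0. The fifth was the fibrillar collagen COL3A1, at 174 FPKM at day 6 and without a read at day 0. The remaining 10 of the first 15 lay between 60.1 and 147.7 FPKM at day 6 and at or under 1.25 FPKM at day 0. They were the apelin receptor APLNR, the protease inhibitor CST1, the thyroid hormone carrier TTR, the hyaluronan link protein HAPLN1, the surface protein PRTG and the atrial light chain MYL4, then the BMP-induced factor MSX1, the proteoglycan LUM, the heart and endoderm factor GATA4 and the adhesion protein FLRT3.

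The greatest fall of a protein-coding gene was that of POU5F1 (ENSG00000204531, chromosome 6, 31164337 to 31180731, minus strand), the central pluripotency factor, at 3.68 FPKM at day 6 and 561.4 FPKM at day 0. The secreted WNT antagonist SFRP2 came next, with 2.68 FPKM at day 6 and 399 FPKM at day 0. Beside pluripotency genes, the 15 greatest falls held genes with other roles. EGR1, an immediate early factor, had 0.977 FPKM at day 6 and 72.3 FPKM at day 0. The neurofilament gene NEFM had 0.0264 FPKM at day 6 and 30.5 FPKM at day 0, and its partner NEFL had 0.0935 FPKM at day 6 and 28.6 FPKM at day 0. The secretoglobin SCGB3A2 had 0.161 FPKM at day 6 and 45.6 FPKM at day 0, and the nicotinamide riboside kinase NMRK2 had 2.59 FPKM at day 6 and 97.1 FPKM at day 0. C13orf42, ACTA1, HES3, MT1G, POLR3G, SOX2, PRDM14 and NANOGP8 complete the 15.

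The most abundant protein-coding transcripts of the day 6 culture belonged to housekeeping functions. Of the 10 highest by FPKM, 9 were encoded by mitochondrial DNA, led by MT-CO1 with 7359 FPKM at day 6 and 13307 FPKM at day 0. Among nuclear genes the elongation factor EEF1A1 was first, at 1202 FPKM at day 6 and 2634 FPKM at day 0; its fall did not pass the rule under TPM scaling or scaling by total reads. Of the 10 highest nuclear genes, the actin-binding protein TMSB10 and the growth factor MDK rose. MDK, a heparin-binding factor of embryonic tissues, had 602.9 FPKM at day 6 and 102.6 FPKM at day 0. The iron storage subunit FTL fell, with 612 FPKM at day 6 and 1768 FPKM at day 0.

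Most pluripotency factors had fallen by day 6, but some of the listed stem cell genes had not. Of 58 listed pluripotency factors and stem cell markers, 55 had an FPKM of at least 1 at day 0. Among these, 34 had fallen (61.8%, against 15.5% of all 14357 genes with that level at day 0). A further 18 remained (32.7%, against 79.1%), which means an FPKM of at least 1 at day 6 and no fall. The last 3, KLF4, TFCP2L1 and LEFTY2, had not fallen by the rule and were under 1 at day 6. KLF17, DND1 and FGF4 were under 1 at day 0. Of the 34 that fell, 10 were under 1 FPKM at day 6 and 10 others still had at least 10 FPKM. Under the other pseudocount, minima and scalings the number that fell lay between 29 and 37 and the number that remained between 15 and 22.

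POU5F1, SOX2 and NANOG differed in FPKM at day 6, but stood at 0.655%, 0.246% and 0.32% of their day 0 levels. POU5F1 fell 153-fold, with an interval of 132 to 178, and its 3.68 FPKM at day 6 was above the minimum. SOX2, the partner of POU5F1 and also a neural factor, had 0.184 FPKM at day 6 and 74.7 FPKM at day 0, a 406-fold fall with an interval of 206 to 941. NANOG, the third factor of the circuit, had 0.0751 FPKM at day 6 and 23.4 FPKM at day 0, which rests on 7 reads at day 6 and 1837 at day 0. Its near-identical retrogene NANOGP8 had 0.126 FPKM at day 6 and 61.9 FPKM at day 0, so reads of the pair may have been divided between them and the level of each is uncertain. PRDM14, a repressor of lineage genes, and FOXD3, a forkhead factor, had no reads at day 6, and had 31.05 FPKM and 13.9 FPKM at day 0. They were at least 437-fold and at least 167-fold lower, taking a floor of 3 reads at day 6. UTF1, DPPA2, NR5A2 and the NODAL antagonist LEFTY1 were also under 1 FPKM at day 6.

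The order in which these genes left can be read from the days between. POU5F1 had 561.4 FPKM at day 0, 352 FPKM at day 2, 100.2 FPKM at day 3, 34.5 FPKM at day 4 and 3.68 FPKM at day 6. SOX2 had 74.7 FPKM at day 0, 19.6 FPKM at day 2, 7.41 FPKM at day 3, 1.86 FPKM at day 4 and 0.184 FPKM at day 6. Both descended at every sampled step. Other members that fell had first gone up. The transcription factor VRTN had 30.9 FPKM at day 0, 70.4 FPKM at day 3 and 10.56 FPKM at day 6. The neuropeptide precursor GAL had 22.98 FPKM at day 0, 105.2 FPKM at day 2 and 1.91 FPKM at day 6.

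Among the markers, the long noncoding RNA ESRG changed most of all 58, with 0.2395 FPKM at day 6 and 591.5 FPKM at day 0, a 2470-fold fall with an interval of 1444 to 4639. The RNA polymerase III subunit POLR3G had 1.05 FPKM at day 6 and 63.8 FPKM at day 0. The surface proteins CD9 and THY1, both used to sort stem cells, fell as well. CD9 had 2.96 FPKM at day 6 and 87.4 FPKM at day 0, and THY1 had 5.27 FPKM at day 6 and 82.4 FPKM at day 0. Several genes fell by much and were still readily detected. DPPA4, a chromatin-bound protein of pluripotent cells, had 19.03 FPKM at day 6 and 332.7 FPKM at day 0. L1TD1, an RNA-binding protein, had 11.6 FPKM at day 6 and 287.6 FPKM at day 0, and the NODAL co-receptor TDGF1 had 24.4 FPKM at day 6 and 150.5 FPKM at day 0. The telomere-binding protein TERF1 had 8.82 FPKM at day 6 and 100.5 FPKM at day 0. The falls of TRIM71 and JADE1 were close to the limit and did not pass the rule under TPM scaling or scaling by total reads.

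**Figure D2:**
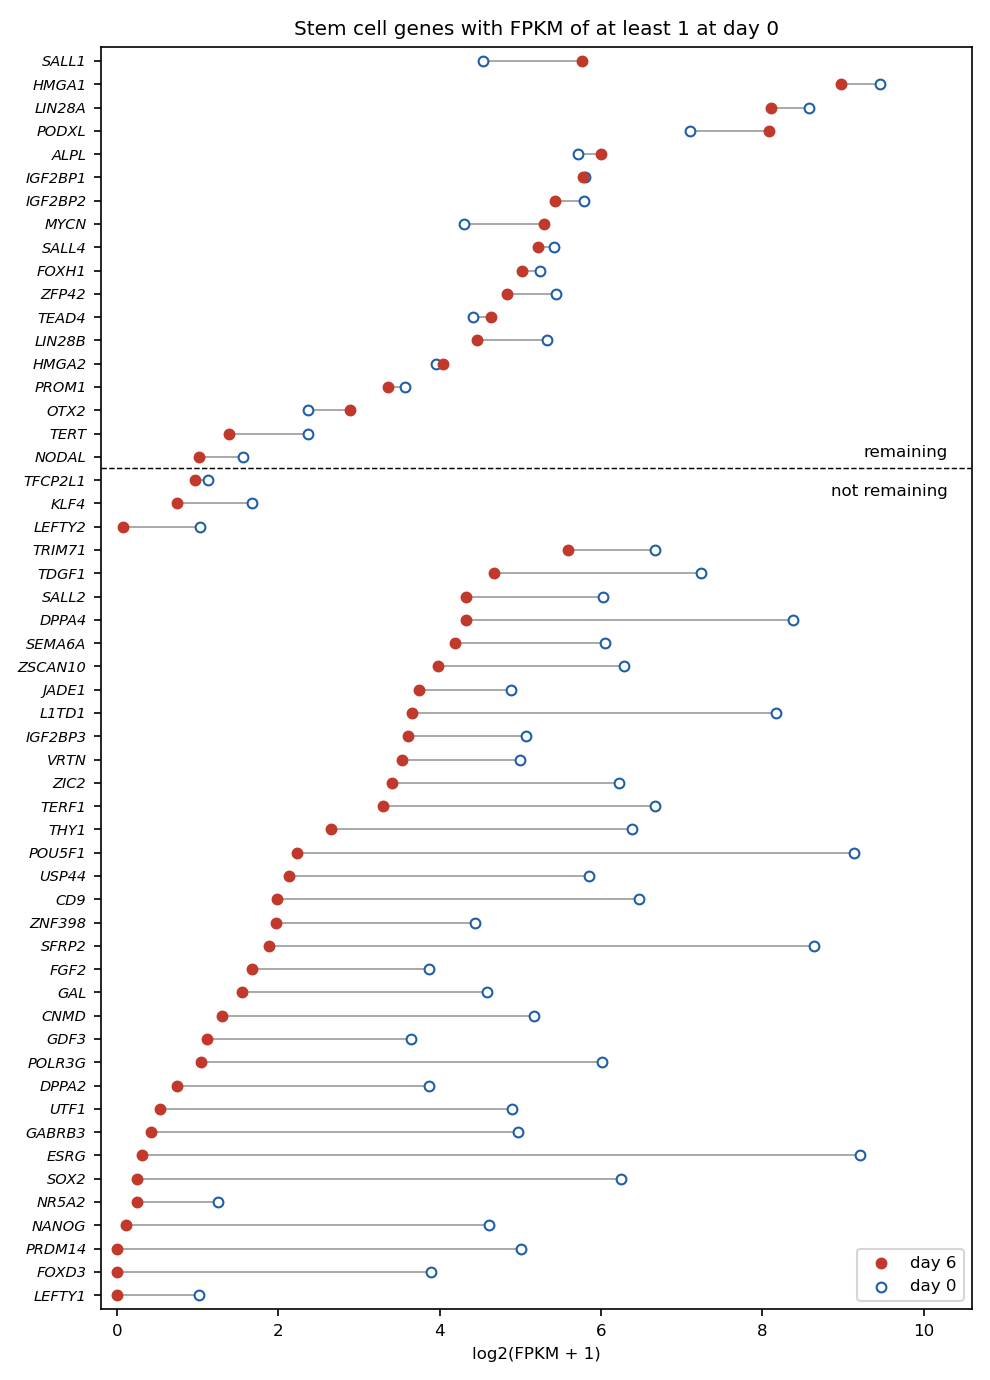
Levels at day 6 (filled red) and day 0 (open blue) of 54 of the 55 stem cell genes with an FPKM of at least 1 at day 0, as log2(FPKM + 1), 1 library each. The 18 that remained stand above the dashed line, led by HMGA1 with 501 FPKM at day 6 and 703 FPKM at day 0, and the 36 below it fell or were under 1 FPKM at day 6.

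The 18 genes that remained included chromatin and RNA-binding proteins, surface proteins and transcription factors. To remain was judged from day 6 and day 0 alone, and some members were lower in between. PROM1 had 10.84 FPKM at day 0, 1.51 FPKM at day 3 and 9.25 FPKM at day 6. TEAD4 had 20.3 FPKM at day 0, 7.79 FPKM at day 3 and 23.8 FPKM at day 6. Others were higher in between, such as SALL4 with 75.8 FPKM at day 3. HMGA1, the highest at day 6 and an architectural chromatin protein, had 501 FPKM at day 6 and 703 FPKM at day 0. LIN28A (chromosome 1), which blocks maturation of the let-7 microRNAs, had 275 FPKM at day 6 and 380.2 FPKM at day 0. It stayed between 273 and 314 FPKM at days 2, 3 and 4 and had 0.626 FPKM at day 30. Its paralogue LIN28B had 21.1 FPKM at day 6 and 39.1 FPKM at day 0, so LIN28B made up 7.12% of the pair at day 6 and 9.32% at day 0. The mRNA-binding proteins IGF2BP1 and IGF2BP2 also remained. IGF2BP1 had 53.8 FPKM at day 6 and 54.8 FPKM at day 0, a ratio whose counting interval includes 1. Not all of the 18 were confined to the early days. At day 30 IGF2BP2 had 58.8 FPKM and HMGA2 had 15.7 FPKM, each above its day 6 level. All others of the 18 were lower at day 30 than at day 6. IGF2BP3, the third of this family, fell, with 11.2 FPKM at day 6 and 32.5 FPKM at day 0.

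Transcription factors that remained were SALL4, ZFP42, FOXH1, TEAD4, MYCN, OTX2 and SALL1. SALL4, a zinc finger factor that binds with the POU5F1 circuit, had 36.1 FPKM at day 6 and 41.8 FPKM at day 0. ZFP42, also called REX1 and widely used as a marker of pluripotent cells, had 27.6 FPKM at day 6 and 42.5 FPKM at day 0. FOXH1, the DNA-binding partner of NODAL-activated SMADs, had 31.3 FPKM at day 6 and 36.96 FPKM at day 0. SALL1 was the 1 gene of the 55 that rose, with 53.3 FPKM at day 6 and 22.3 FPKM at day 0. MYCN, a growth-promoting factor, had 38.15 FPKM at day 6 and 18.8 FPKM at day 0 and passed the rule for a rise under the other scalings, as did PODXL. PODXL, the surface sialomucin that carries stem cell epitopes, had 269.6 FPKM at day 6 and 136.9 FPKM at day 0. Alkaline phosphatase ALPL, another classic surface marker, had 62.9 FPKM at day 6 and 51.3 FPKM at day 0. OTX2, a factor of epiblast and forebrain, had 6.4 FPKM at day 6 and 4.14 FPKM at day 0, and had reached 67.5 FPKM at day 3. TERT, the catalytic subunit of telomerase, was near the limit with 1.62 FPKM at day 6 and 4.17 FPKM at day 0, and passed the rule for a fall with a pseudocount of 0.1. HMGA2, PROM1 and NODAL complete the 18. NODAL, the ligand of the streak, had 1.03 FPKM at day 6 and 1.95 FPKM at day 0, on either side of 49.3 FPKM at day 2.

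Of the DNA methylation enzymes, the de novo methyltransferase DNMT3B fell, with 36.5 FPKM at day 6 and 409.5 FPKM at day 0. Its paralogue DNMT3A had 12.15 FPKM at day 6 and 10.34 FPKM at day 0, so DNMT3A made up 25% of the pair at day 6 and 2.46% at day 0. This share depends on the gene lengths used, 12020 bases for DNMT3A and 4630 bases for DNMT3B. In reads, DNMT3A had 2525 and DNMT3B 2925 at day 6, against 1806 and 27545 at day 0. UHRF1, which guides maintenance methylation, rose, with 12.7 FPKM at day 6 and 2.31 FPKM at day 0, while the maintenance enzyme DNMT1 had 18.1 FPKM at day 6 and 17.4 FPKM at day 0. The hydroxylase TET1 fell, with 14.8 FPKM at day 6 and 38.1 FPKM at day 0, and did not pass the rule under TPM scaling. Genes on the ectoderm side of early choice, 13 of 20 of them measured, gave 7 falls and 1 rise, with a median of -1.02. They included HES3, a transcriptional repressor found in neural progenitors, which had no read at day 6 and 40.8 FPKM at day 0. POU3F1, a factor of epiblast and neural tissue, had 0.371 FPKM at day 6 and 13.65 FPKM at day 0.

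Most heart transcription factors had been switched on or raised by day 6. Of 24 listed, 23 were measured, 18 rose and 1, the ventricular homeobox factor IRX4, fell, with a median difference of 3.00. A listed gene that was silent at day 0 counts as measured only if it reached the minimum at day 6, and such a gene is near or past the limit for a rise by construction. Counts of rises among measured members are therefore descriptions, here and in the lists below. Each such count stands beside 14.9% risen and 13.1% fallen over all compared genes. HAND1 (ENSG00000113196, chromosome 5, 154474972 to 154478264, minus strand), which acts in the heart tube and in extraembryonic tissues, rose 637-fold, with an interval of 356 to 1276. The zinc finger factors GATA4, GATA5 and GATA6 all rose. GATA4 had 60.5 FPKM at day 6 and 0.0465 FPKM at day 0, and GATA6 had 52.7 FPKM at day 6 and no read at day 0. HAND2, the paralogue of HAND1, had 41.04 FPKM at day 6 and no read at day 0, which is at least 716-fold higher. T-box factors rose as well, of which TBX3 had 44.7 FPKM at day 6 and 0.0694 FPKM at day 0. TBX20 had 18.97 FPKM at day 6 and TBX2 had 11.3 FPKM at day 6, both without a read at day 0. TBX5, the factor of the first heart field and left ventricle, was lower, at 3.12 FPKM at day 6 and 0.0316 FPKM at day 0.

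Homeobox factors of heart progenitors were also present. NKX2-5, the early marker of committed heart cells, had 8.84 FPKM at day 6 and 0.2301 FPKM at day 0, a 38.4-fold rise with an interval of 18.4 to 96.3. It had stood at 9.31 FPKM at day 4. ISL1, the factor of the second heart field, had 15.96 FPKM at day 6 and 0.0478 FPKM at day 0, and had been higher at day 4, with 26.5 FPKM. All 6 measured second heart field genes of 12 listed rose. Factors with roles in muscle differentiation were at different levels. MYOCD, the cofactor of serum response factor, had 3.18 FPKM at day 6 and 0.0465 FPKM at day 0. The muscle methyltransferase SMYD1 had 4.99 FPKM at day 6 and no read at day 0, and MEF2C had 1.45 FPKM at day 6 and 0.0351 FPKM at day 0. SRF, the serum response factor, did not pass the rule, with 18.3 FPKM at day 6 and 21.2 FPKM at day 0. MEF2A had 8.83 FPKM at day 6 and 6.67 FPKM at day 0, and MEF2D and HEY2 did not pass the rule either.

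Genes of the primitive streak and early mesoderm were mixed at day 6. Of 17 primitive streak genes, 9 were measured and 7 rose, with a median of 2.20. EOMES, the T-box factor of streak and endoderm, had 0.0377 FPKM at day 0, 167 FPKM at day 2 and 3.78 FPKM at day 6. MIXL1 did not pass the rule, at 0.509 FPKM at day 0, 471.5 FPKM at day 2 and 1.88 FPKM at day 6. Of 19 early mesoderm genes, 14 were measured and 7 rose, with a median of 0.94. The apelin receptor APLNR had 0.1105 FPKM at day 0, 656 FPKM at day 3 and 144.7 FPKM at day 6, whereas PDGFRA, the receptor that marks cardiac mesoderm, was highest at day 6 of these first 5 libraries, with 40.6 FPKM at day 6 and 0.163 FPKM at day 0. KDR, the receptor used with PDGFRA to sort cardiac mesoderm, had 73.9 FPKM at day 6 and 83.4 FPKM at day 0.

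Contractile genes had begun to appear in part. Of 34 listed, 22 were measured, 16 rose and 1 fell, with a median of 1.52. The 12 others, among them the ventricular light chain MYL2, MYBPC3, MYH7 and desmin DES, were under 1 FPKM on both days. The atrial light chains were among the highest. MYL7 rose 1423-fold, with an interval of 609 to 4383, and MYL4 had 61.9 FPKM at day 6 and no read at day 0. Tropomyosin TPM1 lay between them, with 92.2 FPKM at day 6 and 17.98 FPKM at day 0. Troponins were at lower levels. TNNT2, cardiac troponin T, had 9.83 FPKM at day 6 and 0.114 FPKM at day 0, and TNNC1, the calcium-binding subunit, had 16.9 FPKM at day 6 and 0.707 FPKM at day 0. The slow skeletal and fetal heart troponin TNNI1 had 15.5 FPKM at day 6 and 0.174 FPKM at day 0. The adult heart isoform TNNI3 had 1.59 FPKM at day 6 and 2.61 FPKM at day 0, so TNNI1 made up 90.7% of the pair at day 6 and 6.25% at day 0. Thick filament and titin were low. MYH6, the atrial heavy chain, had 3.43 FPKM at day 6 and 0.0212 FPKM at day 0, beside 69.0 FPKM at day 30. Titin TTN had 2.015 FPKM at day 6 and 0.351 FPKM at day 0. MYH6 and MYH7 are close in sequence, and whether their reads were separated is not known.

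The actins moved in opposite directions. ACTC1, cardiac alpha-actin, had 13.8 FPKM at day 6 and 3.60 FPKM at day 0, a 3.82-fold rise with an interval of 3.32 to 4.40. ACTA1, skeletal alpha-actin, had 0.116 FPKM at day 6 and 32.2 FPKM at day 0, a 278-fold fall with an interval of 94.6 to 1350 that rests on 3 reads at day 6. ACTC1 therefore made up 99.2% of this pair at day 6 and 10.1% at day 0. ACTA2, smooth muscle alpha-actin, had 8.11 FPKM at day 6 and 0.185 FPKM at day 0, and against it ACTC1 made up 62.9% at day 6 and 95.1% at day 0. Serum response factor controls alpha-actin genes through CArG boxes, so the proximal promoters of contractile genes were searched for this motif. Those of MYL7, ACTC1 and ACTA1 are shown because these are the contractile genes that rose or fell with a match. That each of them holds the motif therefore follows from the choice. The windows run from 250 bases before to 50 bases after the annotated start, from RefSeq on GRCh38.p14, written 5′ to 3′ on the strand of the gene, with the CArG box in capitals.
MYL7, chr7:44141283-44141582, minus strand: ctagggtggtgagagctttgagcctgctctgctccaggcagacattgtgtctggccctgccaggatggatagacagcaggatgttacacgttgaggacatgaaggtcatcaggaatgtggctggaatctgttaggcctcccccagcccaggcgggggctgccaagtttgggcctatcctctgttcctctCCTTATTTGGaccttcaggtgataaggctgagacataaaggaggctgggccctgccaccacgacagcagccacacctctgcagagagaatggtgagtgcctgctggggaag
ACTC1, chr15:34795500-34795799, minus strand: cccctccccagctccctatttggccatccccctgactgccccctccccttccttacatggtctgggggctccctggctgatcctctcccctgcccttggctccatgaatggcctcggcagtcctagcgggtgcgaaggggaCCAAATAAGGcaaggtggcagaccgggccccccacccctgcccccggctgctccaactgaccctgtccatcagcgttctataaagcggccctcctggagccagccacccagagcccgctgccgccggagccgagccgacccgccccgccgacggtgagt
ACTA1, chr1:229434045-229434344, minus strand: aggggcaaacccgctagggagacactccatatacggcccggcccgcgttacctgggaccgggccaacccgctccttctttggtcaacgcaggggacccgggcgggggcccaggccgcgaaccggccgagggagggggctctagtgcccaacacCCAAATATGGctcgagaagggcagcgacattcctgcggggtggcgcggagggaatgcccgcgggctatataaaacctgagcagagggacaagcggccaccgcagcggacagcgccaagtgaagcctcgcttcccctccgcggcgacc
The CArG box was searched on both strands only in its strict form CCWWWWWWGG, where W is A or T. Each window holds 1 such match, at 61, 109 and 97 bases before the start. Forms with a mismatch were not searched or marked, so further CArG-like elements are not counted here. The ACTC1 window is 1 of 3 that RefSeq lists. Of 27305 promoter windows in the table, 1.29% hold a CArG box. Of the 34 contractile genes 22 matched a window, and 5 of these held the motif. Of the 11 matched genes that rose, 2 held it, MYL7 and ACTC1, and MYOM1 and LDB3, which also held it, were under the FPKM minimum.

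Genes of excitation moved both ways. Of 25 calcium and channel genes, 16 were measured, 3 rose and 3 fell (18.8% each, against 14.9% and 13.1% of all compared genes), with a median of 0.07, which was -0.05 with an FPKM minimum of 5. Connexin 43, GJA1, rose and was the highest, with 412 FPKM at day 6 and 170.2 FPKM at day 0. JPH2, which couples membrane and sarcoplasmic reticulum, had 3.26 FPKM at day 6 and 0.0347 FPKM at day 0. The calcium pump ATP2A2 had 26.3 FPKM at day 6 and 25.3 FPKM at day 0, and the release channel RYR2 had 1.32 FPKM at day 6 and 0.7395 FPKM at day 0. HCN4, the pacemaker channel, fell, with 6.97 FPKM at day 6 and 17.9 FPKM at day 0, and did not pass the rule under TPM scaling. Of 10 natriuretic and chamber genes 5 were measured, 2 rose and 1 fell, and the summed level of all 10 was 346 FPKM at day 6 and 13.3 FPKM at day 0, of which MYL7 made up 335.8 FPKM at day 6. The other that rose was the atrial factor NR2F2, with 2.13 FPKM at day 6 and 0.01066 FPKM at day 0, and the one that fell was IRX4, with 0.123 FPKM at day 6 and 1.61 FPKM at day 0. The natriuretic peptide NPPB had 2.00 FPKM at day 6 and 1.88 FPKM at day 0, and NPPA was under 1 FPKM on both days.

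Most measured vessel genes rose. Of 25 endothelial genes 21 were measured, 17 rose and 1 fell, with a median of 1.79. SOX17, a factor of endothelium and endoderm, was the highest of those that rose, with 49.8 FPKM at day 6 and no read at day 0. It had been at 196 FPKM at day 4. More specific vessel genes were low, and CDH5, CD34 and TAL1 had their highest level of the first 5 libraries at day 6. CDH5, the cadherin of endothelial junctions, had 3.76 FPKM at day 6 and 0.0566 FPKM at day 0, and CD34 had 2.82 FPKM at day 6 and 0.0224 FPKM at day 0. TAL1, a factor of blood and endothelium, had 5.47 FPKM at day 6 and 0.0483 FPKM at day 0. ETV2, the factor that starts endothelial fate, was highest at day 4 with 5.97 FPKM, and had 1.45 FPKM at day 6 and 0.192 FPKM at day 0. The 5 defining endothelial markers had already summed to 21.2 FPKM at day 3, when CDH5 had 0.206 FPKM, and to 17 FPKM at day 4. Their sum was 18.7 FPKM at day 6 and 1.66 FPKM at day 0. APLN, the ligand of APLNR, went the other way, with 1.23 FPKM at day 6 and 8.68 FPKM at day 0. Blood genes were low on both days. Of 15 listed, 2 were measured, and HBE1, HBZ and PTPRC had no reads on either day.

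Epicardial and mural genes were present in part. Of 14 epicardial genes 6 were measured, 4 rose and the glycoprotein PDPN fell. LRRN4, a mesothelial surface protein, had 56.8 FPKM at day 6 and 0.153 FPKM at day 0. BNC1, a factor of mesothelium, had 7.43 FPKM at day 6 and 0.0431 FPKM at day 0, and TCF21 had 2.99 FPKM at day 6 and no read at day 0. WT1 and TBX18, the usual defining factors, were under 1 FPKM on both days. Of 16 smooth muscle and mural genes 11 were measured, 4 rose and 1 fell. RGS5, a pericyte regulator of G-protein signalling, had 94.2 FPKM at day 6 and 3.18 FPKM at day 0. The late smooth muscle protein MYH11 was under 1 FPKM on both days.

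Endoderm was gained beside mesoderm. Of 15 endoderm factors 13 were measured, 10 rose and 1, ONECUT1, fell, with a median of 3.15. FOXA2, the pioneer factor of gut endoderm, had 34.1 FPKM at day 6 and no read at day 0. HNF4A, a master factor of liver and yolk sac endoderm, had 10.8 FPKM at day 6 and no read at day 0. Of 20 proteins secreted by fetal liver and yolk sac, 14 were measured, 13 rose and none fell, with a median of 3.01. The summed level of all 20 was 433 FPKM at day 6 and 2.65 FPKM at day 0. APOA1 rose 1818-fold, with an interval of 622 to 8820. TTR had 66.9 FPKM at day 6 and was at least 776-fold higher, and fibrinogen beta FGB had 27.3 FPKM at day 6, both without a read at day 0. The apolipoproteins APOA2 and APOB were lower, with 26.1 FPKM and 10.7 FPKM at day 6, and 0.0728 FPKM and 0.232 FPKM at day 0. Alpha-fetoprotein AFP had only begun, at 1.10 FPKM at day 6 and 0.0211 FPKM at day 0, beside 298.9 FPKM at day 30. SOX17 and FOXA2 were past their highest level, since SOX17 had 191 FPKM at day 3 and FOXA2 had 85.4 FPKM at day 4, while APOA1, TTR and FGB were at or under 3.87 FPKM through day 4.

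**Figure D3:**
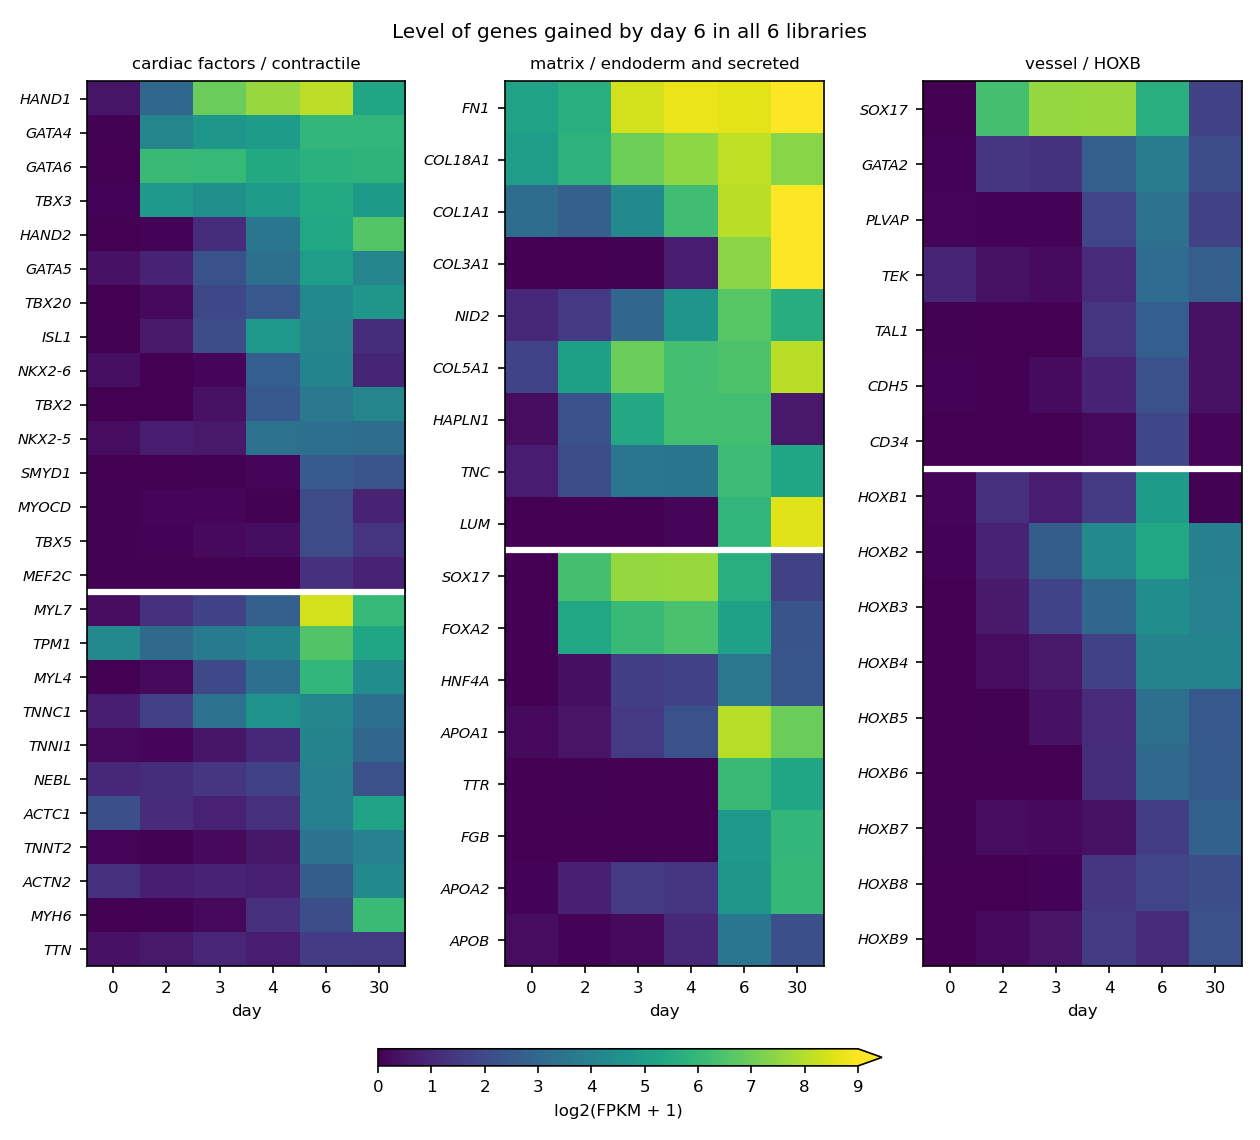
Level of genes that rose by day 6, as log2(FPKM + 1) by colour, in the 6 libraries from day 0 to day 30, with white lines between groups. Factors such as GATA6 and SOX17 are high from day 2, whereas TTR and FGB are at or near 0 through day 4 and reach 66.9 and 27.3 FPKM at day 6.

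HOX genes, which set position along the body axis, were gained from 1 cluster alone among those measured. Of 39 HOX genes 9 were measured, and these were HOXB1 to HOXB9, each under 0.1 FPKM at day 0 and each risen at day 6. The other 30 were under 1 FPKM on both days. The levels at day 6 decreased along most of the cluster. HOXB2 had 41.6 FPKM at day 6 and 0.0589 FPKM at day 0, and HOXB1, the gene at the front end of the cluster, had 29.6 FPKM at day 6 and 0.0834 FPKM at day 0. HOXB3 had 20.4 FPKM, HOXB4 15.1 FPKM, HOXB5 9.10 FPKM and HOXB6 7.44 FPKM at day 6. HOXB7 to HOXB9 lay between 1.165 and 2.65 FPKM at day 6. HOXB1 was back at 0.0327 FPKM at day 30, when HOXB2 to HOXB9 had between 3.47 and 15.8 FPKM. Retinoic acid induces anterior HOX genes in the embryo, and of the 11 measured of 17 listed genes of this pathway 5 rose and 1 fell. The receptor RARB, itself a target, had 4.40 FPKM at day 6 and 0.0745 FPKM at day 0. The degrading enzyme CYP26A1 had 2.49 FPKM at day 6 and 3.15 FPKM at day 0, with 107 FPKM at day 3 in between, and the synthesis enzyme ALDH1A2 was under 1 FPKM on both days.

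Among long intergenic RNAs, 145 of 707 rose (20.5%) and 120 fell (17%), against 14.9% and 13.1% of all compared genes. The greatest rise was that of AC004080.1 (chromosome 7, 27239243 to 27241228, minus strand), with 31.6 FPKM at day 6 and no read at day 0. It lies next to the homeobox gene EVX1 (chromosome 7, 27242700 to 27250493, plus strand), which had 7.004 FPKM at day 6 and no read at day 0. PCAT14 had 133.9 FPKM at day 6 and 3.63 FPKM at day 0, and GATA3-AS1 had 16.6 FPKM at day 6 and no read at day 0. GATA3 itself, a factor of amnion, endothelium and other tissues, had 48.5 FPKM at day 6 and 0.1202 FPKM at day 0. The 5 greatest falls of this class had between 112.8 and 250.6 FPKM at day 0 and at most 0.385 FPKM at day 6. AL354821.1 led them with no read at day 6 and 250.6 FPKM at day 0, followed by LINC00678 with 0.0497 FPKM at day 6 and 222 FPKM at day 0. Whether counting used strand is not given, so reads of antisense and overlapping genes may not have been separated.

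BMP signalling genes rose on both the ligand and the response side. Of 13 ligands and antagonists 12 were measured and 10 rose, with a median of 2.72. BMP4 had 96.8 FPKM at day 6 and 0.916 FPKM at day 0, and BMP5 had 31.85 FPKM at day 6 and no read at day 0. The antagonist NOG fell, with 6.57 FPKM at day 6 and 16.0 FPKM at day 0, and did not pass the rule under TPM scaling or scaling by total reads. All 10 listed response genes were measured and rose, with a median of 2.95. ID1, an inhibitor of differentiation and direct target, had 319.6 FPKM at day 6 and 79.3 FPKM at day 0. SMAD6, the inhibitory SMAD of this pathway, had 73.8 FPKM at day 6 and 0.723 FPKM at day 0, and the decoy receptor BAMBI had 179 FPKM at day 6 and 8.12 FPKM at day 0.

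In the WNT pathway, 3 of 4 measured ligands of 19 listed rose. WNT5A, a ligand of the noncanonical branch, had 11.7 FPKM at day 6 and 0.521 FPKM at day 0, and WNT11, which acts in heart induction, had 4.915 FPKM at day 6 and 0.086 FPKM at day 0. Of 9 measured targets 6 rose, with a median of 2.80. LEF1, the nuclear partner of beta-catenin, had 23.2 FPKM at day 6 and 0.0257 FPKM at day 0, whereas AXIN2, the usual target readout, had 4.06 FPKM at day 6 and 4.03 FPKM at day 0, after 19.7 FPKM at day 2. Of 7 measured antagonists 4 rose and 1 fell. SFRP5 had 56.3 FPKM at day 6 and 0.4499 FPKM at day 0, SFRP2 fell 149-fold, with an interval of 122 to 185, and SFRP1 had 66.6 FPKM at day 6 and 67.97 FPKM at day 0. SFRP1 made up 96.1% of its pair with SFRP2 at day 6 and 14.5% at day 0.

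Of 10 measured FGF ligands and receptors 5 rose and 3 fell, and the 5 included 3 of the receptors. FGFR3 had 90.7 FPKM at day 6 and 1.99 FPKM at day 0, FGFR4 had 57.6 FPKM at day 6 and 9.835 FPKM at day 0, and FGFR2 had 55.1 FPKM at day 6 and 14.7 FPKM at day 0. FGFR1 had 66.4 FPKM at day 6 and 49.95 FPKM at day 0 and did not pass the rule. FGF2, a growth factor of stem cell media and an autocrine factor, had 2.19 FPKM at day 6 and 13.7 FPKM at day 0, and FGF10, a ligand of the second heart field, had 3.67 FPKM at day 6 and 0.160 FPKM at day 0. NOTCH genes were mixed, with 5 rises and 1 fall among 13 measured of 16 listed and a median of 0.23. The target HEY1 rose, with 5.87 FPKM at day 6 and 1.001 FPKM at day 0, and the ligand JAG1 fell, with 6.63 FPKM at day 6 and 28.7 FPKM at day 0.

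Matrix genes had the largest summed level of all lists at day 6, with 3199 FPKM over all 36 at day 6 and 535 FPKM at day 0. Of 36 listed genes 33 were measured, 27 rose and 3 fell, with a median of 2.90. COL3A1 was at least 5740-fold higher against the floor of 3 reads, and stood at 4173 FPKM at day 30. COL1A1, the main chain of type I collagen, had 269.9 FPKM at day 6 and 8.398 FPKM at day 0. Fibronectin FN1, on which mesoderm migrates, was the highest of all, with 396 FPKM at day 6 and 35.8 FPKM at day 0. Basement membrane chains rose as well. COL18A1 had 282.6 FPKM at day 6 and 31.4 FPKM at day 0, and the laminin chain LAMA1 had 81.1 FPKM at day 6 and 9.99 FPKM at day 0. Genes of cardiac jelly, the hyaluronan-rich matrix of the heart tube, were among the members. HAPLN1 had 76.9 FPKM at day 6 and 0.218 FPKM at day 0, and the hyaluronan synthase HAS2 had 75.05 FPKM at day 6 and 2.25 FPKM at day 0, beside 208 FPKM at day 3. Those that fell were the collagen-crosslinking enzyme LOX and the mechanosensitive CCN proteins, listed as CTGF and CYR61, and both CCN genes did not pass the rule under TPM scaling or scaling by total reads.

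Cadherins were exchanged between the days. CDH2, the cadherin of mesoderm and heart, had 81.8 FPKM at day 6 and 7.44 FPKM at day 0, and CDH1, the epithelial cadherin, had 16.6 FPKM at day 6 and 86.9 FPKM at day 0. CDH2 made up 83.2% of the pair at day 6 and 7.89% at day 0. Its share had been 64.2% at day 2 and 80.8% at day 3. Of 16 mesenchymal genes, all measured, 12 rose and 1, TWIST2, fell, with a median of 2.04. TWIST2 did not pass the rule under scaling by total reads or median-of-ratios scaling. Vimentin VIM, their intermediate filament, had 135.6 FPKM at day 6 and 12.3 FPKM at day 0, and PRRX1, a homeobox factor of limb and heart mesenchyme, had 17.2 FPKM at day 6 and 0.00835 FPKM at day 0. SNAI1, the repressor of CDH1, had 16.7 FPKM at day 6 and 8.82 FPKM at day 0 and did not pass the rule. Of 20 epithelial genes, all measured, 8 fell and 2 rose, with a median of -0.68, and under TPM scaling 5 fell. The splicing regulator ESRP1 had 10.5 FPKM at day 6 and 63.5 FPKM at day 0. Simple epithelial keratins went against their list, as KRT19 had 532 FPKM at day 6 and 39.25 FPKM at day 0 and KRT8 had 345 FPKM at day 6 and 70.3 FPKM at day 0. The tight junction protein CLDN6 was still at 83.4 FPKM at day 6, beside 233.5 FPKM at day 0.

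**Figure D4:**
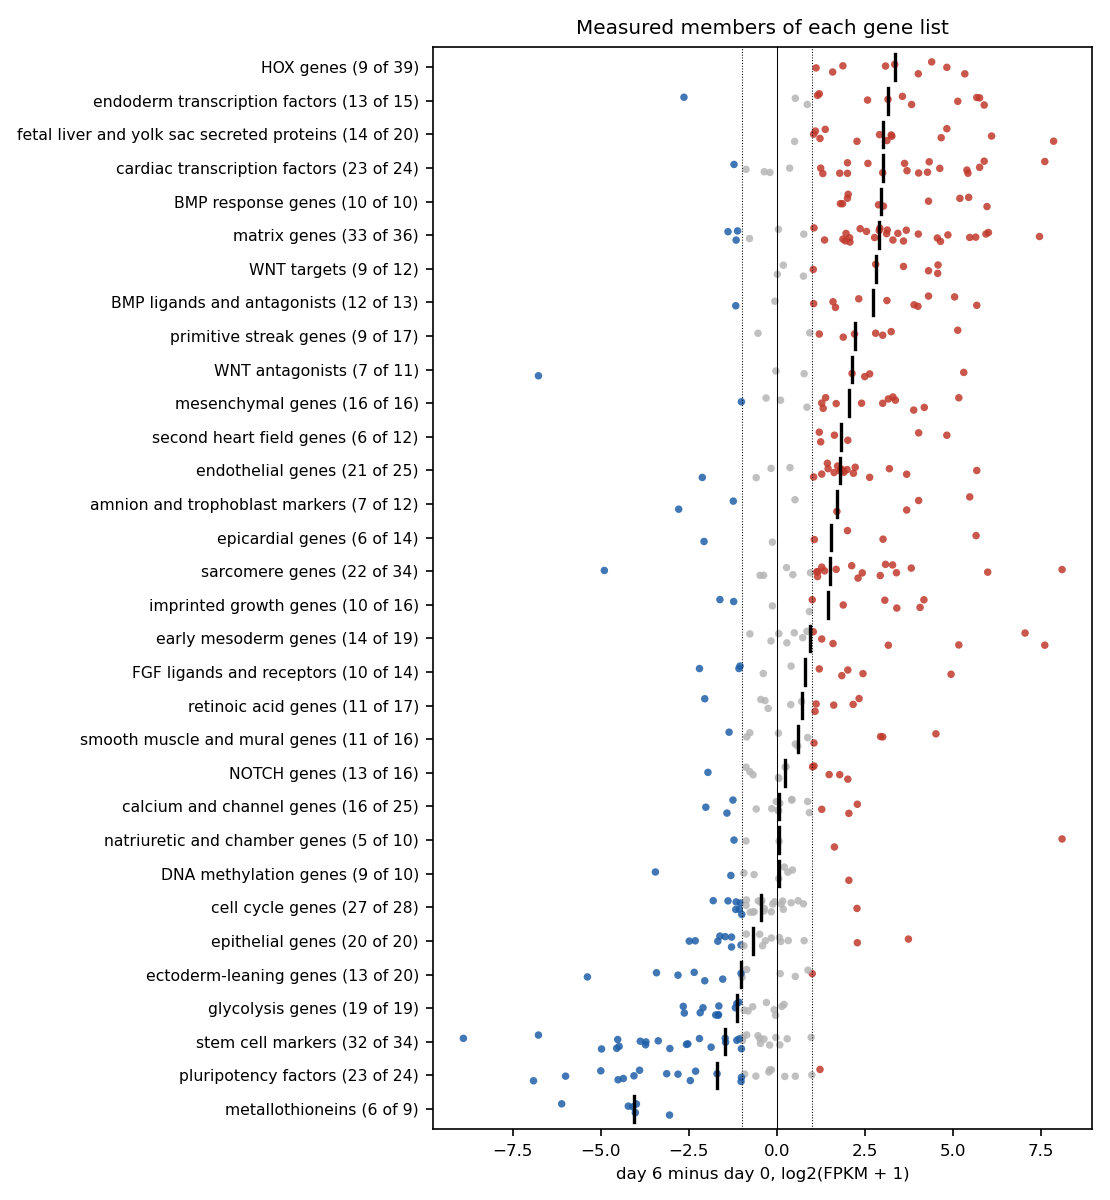
Difference in log2(FPKM + 1), day 6 minus day 0, of each measured member of the 32 gene lists with at least 5 measured members, as points (red risen, blue fallen, grey neither), with the median of each list as a black bar. The numbers after each name are measured and listed members, dotted lines mark differences of 1 and -1, and medians run from 3.34 for the HOX genes to -4.05 for the metallothioneins.

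Imprinted growth genes were among the other gains, with 6 rises and 2 falls among 10 measured of 16 listed. IGF2, the fetal growth factor, had 17.1 FPKM at day 6 and 0.00986 FPKM at day 0, which rests on 1 read at day 0 and carries an interval of 312 to 68681 around a 1738-fold rise. The cell cycle inhibitor CDKN1C had 91.4 FPKM at day 6 and 10.05 FPKM at day 0. Of 28 cell cycle genes 27 were measured, 7 fell and 1 rose, with a median of -0.45, but 2 fell under TPM scaling and under scaling by total reads. The proliferation marker MKI67 had 27.2 FPKM at day 6 and 28.7 FPKM at day 0. CDK6, a kinase of the first gap phase, rose, with 25.2 FPKM at day 6 and 4.44 FPKM at day 0, and the mitotic checkpoint kinase BUB1B fell, with 15.5 FPKM at day 6 and 56.9 FPKM at day 0.

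Glycolysis genes fell in part. Of 19 listed, all measured, 11 fell and none rose, with a median of -1.14. Under TPM scaling and under scaling by total reads 8 fell. The glucose transporter SLC2A1 had 79.8 FPKM at day 6 and 509 FPKM at day 0, a 6.38-fold fall with an interval of 6.21 to 6.55. Its relative SLC2A3 had 441.5 FPKM at day 6 and 454.9 FPKM at day 0, so the 2 transporters did not change alike. Phosphoglycerate kinase PGK1 had 82.2 FPKM at day 6 and 355 FPKM at day 0, and GAPDH had 421 FPKM at day 6 and 1327 FPKM at day 0. The phosphofructokinases PFKL, PFKM and PFKP did not pass the rule.

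Metallothioneins, small metal-binding proteins that metal ions and stress hormones induce, fell to near 0. Of 9 listed, 6 were measured and all 6 fell, with a median of -4.05, and the summed level of all 9 was 0.888 FPKM at day 6 and 154 FPKM at day 0. MT1G had no read at day 6 and 67.9 FPKM at day 0. MT2A had 0.4453 FPKM at day 6 and 23.6 FPKM at day 0, and MT1X had 0.228 FPKM at day 6 and 21.9 FPKM at day 0. Members of the family are alike in sequence and may share reads. MT2A was at 1102 FPKM at day 30. Their promoters are shown because the metal-responsive factor MTF1 acts on these genes through metal response elements. The windows are of the same kind as above, and the capitals mark the element TGCACNC, where N is any base, and its variant with the letters TGCGCNC, searched on both strands.
MT2A, chr16:56608334-56608633, plus strand: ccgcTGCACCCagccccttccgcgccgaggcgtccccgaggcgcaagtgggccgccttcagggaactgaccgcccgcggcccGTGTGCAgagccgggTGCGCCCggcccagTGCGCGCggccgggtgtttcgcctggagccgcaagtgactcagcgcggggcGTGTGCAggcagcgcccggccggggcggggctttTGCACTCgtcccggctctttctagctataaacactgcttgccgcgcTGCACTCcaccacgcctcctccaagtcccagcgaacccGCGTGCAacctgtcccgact
MT1X, chr16:56682220-56682519, plus strand: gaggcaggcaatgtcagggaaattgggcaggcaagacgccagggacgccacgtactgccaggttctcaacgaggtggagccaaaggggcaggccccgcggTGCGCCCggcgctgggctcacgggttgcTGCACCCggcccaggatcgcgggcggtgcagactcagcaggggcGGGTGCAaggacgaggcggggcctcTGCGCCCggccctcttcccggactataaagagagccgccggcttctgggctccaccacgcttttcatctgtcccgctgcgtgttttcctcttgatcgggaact
MT2A holds 8 such elements, MT1X holds 4 and MT1H, the third gene with a window, holds 8, and none of them overlap within a window. Of 27305 promoter windows 0.593% hold at least 4, and 29.3% hold at least 1. No window was matched for MT1A, MT1E, MT1F, MT1G, MT1M and MT3.

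Markers of other tissues give a measure of what else the day 6 culture held. The 6 markers of endoderm and liver summed to 163 FPKM at day 6 and 0.0211 FPKM at day 0, and 5 of them reached an FPKM of 1 at day 6. The 6 markers of amnion and trophoblast summed to 54.2 FPKM at day 6 and 15.5 FPKM at day 0, of which GATA3 made up 48.5 FPKM at day 6, while TFAP2C fell, with 0.847 FPKM at day 6 and 11.8 FPKM at day 0. The 4 kidney and intermediate mesoderm markers summed to 12.9 FPKM at day 6 and 0.307 FPKM at day 0, and LHX1, also a streak gene, made up 11.2 FPKM of it. The 5 neural markers summed to 1.04 FPKM at day 6 and 1.82 FPKM at day 0, the 3 neural crest markers to 1.06 FPKM at day 6 and 1.30 FPKM at day 0, and the 4 skeletal muscle markers to 0.169 FPKM at day 6 and 1.41 FPKM at day 0, with MYOD1 and MYF5 at 0 at day 6. HAND1, GATA4, GATA6, ISL1 and the keratins are shared between heart mesoderm, endoderm or amnion, and the part of each tissue in their levels was not tested.

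Across all compared protein-coding genes, 1623 of 12605 rose (12.9%) and 1491 fell (11.8%). By transcription factor family, as the deposited table assigns it, 39 of 69 homeobox genes rose (56.5%) and 8 fell. Basic helix-loop-helix factors rose in 17 of 53 cases (32.1%), and T-box factors in 5 of 10. The largest family, the C2H2 zinc fingers, had 39 rises and 41 falls among 502 genes, a share of 7.77% that rose. The bZIP family had 3 rises and 10 falls among 40. The forkhead family was even, with 7 rises and 7 falls among 24.

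The highest day of each gene was read over the first 5 libraries. Because the rule chose genes by day 6 and day 0, a gene that rose cannot be highest at day 0 nor one that fell at day 6, so these counts are descriptions. Of the 2529 genes that rose, 1636 were highest at day 6 (64.7%), 515 at day 4, 267 at day 3 and 111 at day 2. Of the 2224 that fell, 1912 were highest at day 0 (86%) 143 at day 2, 115 at day 3 and 54 at day 4. Among the genes that rose, 891 were lower by at least 1 on the log2 scale at day 30 than at day 6 and 288 were higher by at least 1. TMEM88 was one of the 891, with 42.9 FPKM at day 3, 124 FPKM at day 4, 463.6 FPKM at day 6 and 10.1 FPKM at day 30. COL3A1 was one of the 288, with 0.595 FPKM at day 4, 174 FPKM at day 6 and 4173 FPKM at day 30. Among the genes that fell, 523 were higher by at least 1 at day 30 than at day 6 and 195 were lower by at least 1. CD9 was one of the 523, with 2.96 FPKM at day 6 and 28.8 FPKM at day 30.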

How the data were processed

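Poly-A RNA was sequenced in 6 libraries of H9 cells, 1 for each day, per the labels. CASAVA, HISAT2 and featureCounts 1.5.0-p3 are named in the submitters' processing notes; for settings, genome build and strandedness, the sources used here name none. The authors deposited FPKM values for 58735 genes, whose identifiers and positions all equal GENCODE release 29. Multiplied by gene length, the values of each library fell on whole multiples of its smallest value (100% within 0.01 read), which gave whole reads. The denominator behind the deposited FPKM was 1.12 times the recovered reads at day 6 and 0.98 times at day 0. Differences were taken on log2(FPKM + 1), which understates the change of low genes, and a fold without reads in 1 library is a lower bound against 3 reads. The share of a gene in a pair sets FPKM of different genes side by side, so it depends on the deposited gene lengths.

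Named genes are the 15 protein-coding and 5 long intergenic genes with the greatest rise and fall, up to 4 members per list and direction, all pluripotency factors and stem cell markers, genes of paired shares, the 10 highest at day 6 and genes at the limits; some others were chosen after their values were seen. A few list members are counted but not reported here by name. Members and lists were chosen with earlier results of these data known. Alternatives were another pseudocount, other minima, 3 other scalings, protein-coding genes only, a stricter difference and a counting interval. Promoters come from RefSeq on GRCh38.p14. Python 3.11.15, numpy 2.4.6, pandas 2.3.3, scipy 1.17.1 and matplotlib 3.10.9 were used.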

Additional observations from a re-analysis of the deposited data

How the results depend on the processing

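Of the 2529 rises and 2224 falls, the counts moved by over 1.5 times under 4 alternatives. With an FPKM minimum of 5 there were 1332 rises and 1397 falls, fewer because 9181 genes were compared. With a difference of at least 2 there were 648 rises and 480 falls, and among protein-coding genes 1623 rises. TPM scaling gave 7155 rises and 3066 falls. There 1 FPKM is over 1 TPM, so more genes enter. The median difference shifted upward by 0.35, but not every difference did. Of the named genes and list members, 3 newly passed the rule for a fall. A pseudocount of 0.1 gave 3615 rises and 3044 falls, scaling by total reads 3135 and 1772, median-of-ratios scaling 2601 and 2151, and a counting interval that excludes 1 gave 2255 and 2006. All 2529 rises were also rises under the 3 other scalings, and 1756 falls were kept under TPM scaling and 1772 under total reads. Named genes and the members of all lists held 324 genes that rose or fell. None of these changed sign under the other pseudocount, minima or scalings. With an FPKM minimum of 5, 64 of them were under the minimum. A further check by scaling left 26 not called under TPM scaling, 23 under total reads and 6 under median-of-ratios scaling. By list, TPM scaling gave 11 rises of primitive streak genes, 7 of epicardial genes, 7 of smooth muscle and mural genes, 8 of calcium and channel genes and 5 of WNT ligands, and scaling by total reads left 1 fall of FGF ligands and receptors. No paired analysis was possible because each day has 1 library. Leaving out a library was not possible for the same reason. At 1 read per 0.0578 FPKM for a gene of 1 kilobase at day 6, levels under 0.1 FPKM rest on few reads.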
